A study of Mus musculus with 6 samples.

Results

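The immediate early transcription factor genes Egr1, Egr2, Klf2, Klf4, Klf6, Fos, Fosl1, Fosl2, Jun and Junb were followed in mouse calvaria-derived cells with and without functional Fas ligand. They are the 10 listed members of the Egr, Klf, Fos and Jun families, taken by symbol from the 57180 gene rows of the deposited count table. Of the 10 genes, 7 had enough counts to be tested. The 3 others, Egr2, Jun and Fosl1, were at or near 0 counts.

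The 3 wt libraries represent cultures of C57BL/6 cells. The 3 gld libraries, called FasL KO in the labels, stem from B6Smn.C3-Faslgld/J mice that carry the gld allele of Fasl on both copies. It is a germline point mutation that inactivates the ligand of the death receptor Fas. Both groups grew in the same osteogenic medium with serum, ascorbate and β-glycerophosphate. The labels name no age, no harvest day for a library and no separate animals or cultures behind the libraries of a group, so that p-values measure the spread between these libraries only, which may be technical. Gld cells given recombinant Fas ligand, which the labels mention, were not analysed here.

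Immediate early genes are switched on by serum, growth factors, stretch or stress within minutes and without new protein synthesis, largely through MAP kinases acting on serum response factor and CREB at their promoters. Their mRNAs are short-lived. Egr and Klf proteins are zinc finger factors that bind GC-rich sites, and Fos and Jun proteins pair through a leucine zipper to form AP-1. In mouse bone, Fosl2 and Junb promote osteoblast differentiation, excess Fos causes osteosarcoma and excess Fosl1 raises bone mass.

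The sequences in front of these genes are shown first because they are where such signals act. Promoters of 8 of the 10 members were in the RefSeq table (GRCm38.p6), and none was used for Egr1 and Fosl1. The 3 Klf members that rose in gld and Fos, which did not, are printed 5′ to 3′ up to the last base before the annotated start. Capitals mark matches on either strand to GCGNGGGCG (Egr site), GGGCGG (GC box), CCAAT or TATAAA, of which the first 2 overlap each other in places.
Klf2 (chr8:72318812-72319032, plus strand): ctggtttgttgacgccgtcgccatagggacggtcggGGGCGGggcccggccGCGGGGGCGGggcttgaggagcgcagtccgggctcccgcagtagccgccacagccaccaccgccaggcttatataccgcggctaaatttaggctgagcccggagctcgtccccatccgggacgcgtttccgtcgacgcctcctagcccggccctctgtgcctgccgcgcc
Klf4 (chr4:55532476-55532725, minus strand): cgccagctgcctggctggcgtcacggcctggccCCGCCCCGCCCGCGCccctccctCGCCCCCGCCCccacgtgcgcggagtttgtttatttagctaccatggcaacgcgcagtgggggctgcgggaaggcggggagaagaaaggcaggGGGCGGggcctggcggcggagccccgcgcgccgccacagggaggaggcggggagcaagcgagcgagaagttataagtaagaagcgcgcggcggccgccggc
Klf6 (chr13:5861239-5861481, plus strand): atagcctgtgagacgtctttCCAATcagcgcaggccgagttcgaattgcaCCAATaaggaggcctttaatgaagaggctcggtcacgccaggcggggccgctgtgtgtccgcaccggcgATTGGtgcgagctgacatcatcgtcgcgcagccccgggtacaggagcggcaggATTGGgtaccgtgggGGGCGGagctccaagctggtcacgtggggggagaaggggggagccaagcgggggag
Fos (chr12:85473640-85473889, plus strand): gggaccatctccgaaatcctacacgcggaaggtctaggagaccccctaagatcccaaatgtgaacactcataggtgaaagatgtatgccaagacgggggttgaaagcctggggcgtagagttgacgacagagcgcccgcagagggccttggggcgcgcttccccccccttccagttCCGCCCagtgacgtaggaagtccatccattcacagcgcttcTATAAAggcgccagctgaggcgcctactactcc

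Egr site letters were found in the 250 bases before the RefSeq start of Klf2 (1 match), Klf4 (2 matches) and Fosl2 (1 match), and in 4.7% of 32851 such windows in the genome. The RefSeq start of Fosl2, at 32136472, lies inside its GENCODE gene, which begins at 32135801, and so does the match. Klf6 held 4 CCAAT matches, a motif found in 33.8% of windows, and Fos held 1 TATAAA match at 33 bases before its start, a motif found in 12.4%. The 5 Egr2 windows held 2 distinct CArG box matches, the motif of serum response factor, 1 of them shared by 3 overlapping windows. At least 1 such match was in 1.47% of all windows. The AP-1 letters TGACTCA or TGAGTCA, present in 4.46% of windows, and the CRE letters TGACGTCA, present in 1.55%, were not found in the windows of these 8 genes. All these shares count windows with at least 1 match, whatever the number of matches. A match is a run of letters and not an occupied site.

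The other end of the transcript carries the reads, because these are 3′ tag libraries in which a molecule gives about 1 tag whatever its length. AU-rich motifs there are a feature of many unstable mRNAs. A lone ATTTA is common, and mRNA stability was not measured here. All 10 members had at least 1 ATTTA in the 3′ UTR of their principal GENCODE M21 transcript, as did 76.3% of the 6354 protein-coding genes tested that have an annotated 3′ UTR. Of the members that rose, Klf6 had 2.25 ATTTA per kb, Egr1 1.64, Klf2 1.36 and Klf4 1.02. Of the tested members that did not pass, Fos had 4.91, Junb 4.12 and Fosl2 1.72 per kb, and the median over those tested genes was 1.53 per kb. Members of both kinds were above it. The longer nonamer TTATTTATT was found in Fos and Fosl2 and in 9% of those genes. It is shown in capitals with its neighbours (GRCm38).
Fos (chr12:85477103-85477132, plus strand): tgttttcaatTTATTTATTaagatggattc
Fosl2 (chr5:32156871-32156900, plus strand): atttattttaTTATTTATTttaaatgttta

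Libraries held from 2011173 to 3105322 counts in wt and from 4048258 to 5245546 in gld. Fasl itself was listed at 0 in all 6 libraries, and since gld is a point mutation its tag count could not check the labels. Levels are given as CPM, counts scaled to library size with TMM factors. Tests are edgeR's quasi-likelihood test over 8692 genes with Benjamini-Hochberg adjustment, and fold changes are log2, gld minus wt. The share of counts from mitochondrial genes was 8.69% to 9.51% in wt and 13.4% to 14.3% in gld. The collagen genes Col1a1 and Col1a2, markers of the labelled osteoblasts, were among the abundant transcripts. The osteoblast marker Bglap had 1 count in gld 2 and none in the other libraries, and the markers Spp1 and Sparc had at most 4 and 23 counts in a library. Of their last 300 exonic bases, 89% for Bglap and 0% for Spp1 and Sparc lie in a single annotated transcript. Whether reads were lost there was not tested. Bglap2, another marker of that list and named after its value was seen, had gld counts of 16, 3 and 22 and no wt count. Markers of macrophages differed between the groups and are given beside the members below.

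Egr1 and the 3 Klf members rose in gld, and Fos, Fosl2 and Junb did not pass the test. Egr1 rose 2.66-fold, Klf2 5.31-fold, Klf4 2.58-fold and Klf6 1.90-fold. Of the 7 tested, 4 rose (Egr1, Klf2, Klf4 and Klf6), where 9.74% of all tested genes were called higher. None fell, where 7.69% of all tested genes were called lower. At an unadjusted p under 0.05, 1 member was lower (Fos), and neither DESeq2 nor limma-voom called a member lower. The groups did not overlap in 5 of the 7, against 33.3% of all tested genes. In bulk samples such as these, more cells of a type and more RNA per cell cannot be told apart.

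**Figure D1:**
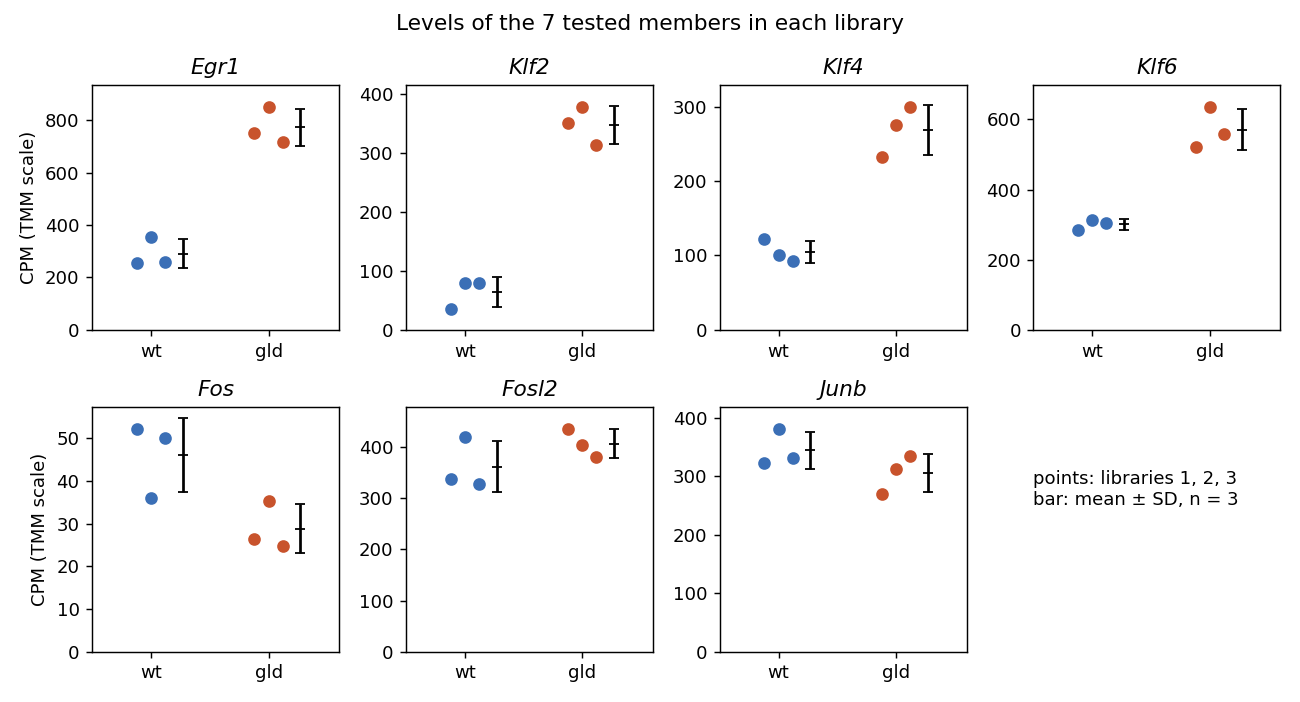
Each panel plots 1 tested member, with the level in CPM on the TMM scale on the y axis, 3 wt and 3 gld libraries as points and the mean ± SD beside them. All 3 gld libraries lie above all 3 wt libraries for Egr1, Klf2, Klf4 and Klf6 and below them for Fos, whereas Fosl2 and Junb overlap.

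Egr1 (ENSMUSG00000038418, on chromosome 18), a zinc finger factor that mitogens and mechanical load induce and that drives collagen genes in tendon, had the highest gld level of the 10 by tag count. Its wt libraries stood at 256, 353 and 260.4 CPM, and its gld libraries at 752, 849 and 715 CPM. Every gld library was above every wt library, with wt 2 the highest of its group and gld 2 the highest of all. The mean went from 289.8 ± 55.2 to 772 ± 69.5 CPM (SD, n = 3), a log2 fold change of 1.41 ± 0.14 (SE, edgeR adjusted p = 5.29e-06), or 2.66-fold. Of the last 300 exonic bases of its principal transcript, 9.3% lie in a single annotated transcript. Whether reads were lost there was not tested. Egr2 (ENSMUSG00000037868, chr10:67535475-67542188, plus strand), the factor of Schwann cell myelination, was listed at 0 in all 6 libraries. The end of Egr2 is shared throughout by several of its 7 transcripts (0% of these bases lie in a single one), so that a count of 0 sets no bound on the mRNA.

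Among the listed genes, members included, those whose last 300 bases lie in a single transcript (at least 99%) had a median total of 1866 counts, with 6 of 109 at 0. The 91 others had a median total of 0, with 46 of them at 0. The Klf, Fos and Jun members here all have a single-transcript end, so this feature does not set them apart from each other.

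Klf2 (ENSMUSG00000055148, chr8:72319033-72321656, plus strand, GRCm38), the Kruppel-like factor of quiescent, flow-exposed endothelium and of resting T cells and macrophages, had the largest fold change of the 7 tested members. Its wt counts were 75, 250 and 258 and its gld counts 1407, 1433 and 1527, or 35.2, 79 and 79.2 CPM against 351, 378 and 313 CPM. Wt 1 was the lowest library by more than 2-fold, and the lowest gld library was still well above the highest wt library. The mean rose from 64.5 ± 25.3 to 347 ± 32.3 CPM (SD, n = 3), with a log2 fold change of 2.41 ± 0.24 (SE, edgeR adjusted p = 4.04e-06). Without wt 1 the log2 fold change was 2.13 ± 0.17 (SE), the lowest of all the settings tried.

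Klf4 (ENSMUSG00000003032, chr4:55527143-55532466, minus strand, GRCm38), a factor of differentiated epithelium and one of the reprogramming factors, stood at 122, 100.5 and 92.1 CPM in the wt libraries and at 233, 275 and 299 CPM in the gld libraries. The lowest gld library was well above the highest wt library. The mean rose from 105 ± 15.3 to 269 ± 33.6 CPM (SD, n = 3), a log2 fold change of 1.36 ± 0.16 (SE, edgeR adjusted p = 2.33e-05).

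Klf6 (ENSMUSG00000000078, chr13:5861482-5870394, plus strand, GRCm38), a widely expressed member of the family linked to growth arrest and wound responses, stood at 284, 314 and 305 CPM in the wt libraries and at 520.4, 635 and 558 CPM in the gld libraries. Its wt libraries were close together and its gld libraries all higher. The mean rose from 301 ± 15.3 to 571 ± 58.2 CPM (SD, n = 3), a log2 fold change of 0.92 ± 0.12 (SE, edgeR adjusted p = 6.66e-05).

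Fos (ENSMUSG00000021250, chr12:85473890-85477273, plus strand, GRCm38), a rapidly induced AP-1 partner of Jun proteins, was the least abundant tested member, with wt counts of 111, 114 and 163 and gld counts of 106, 134 and 120 from deeper libraries. This came to 52.2, 36 and 50.05 CPM for the wt libraries and 26.4, 35.3 and 24.6 CPM for the gld libraries. All gld libraries were below all wt libraries, but the groups were apart by less than 1 CPM, between wt 2 and gld 2. The wt mean was 46.1 ± 8.76 and the gld mean 28.8 ± 5.73 CPM (SD, n = 3), with a log2 fold change of −0.68 ± 0.28 (SE, edgeR adjusted p = 0.12). With library size as the sole scaling the median of all genes went from 0.02 to −0.14, and Fos was then called lower at −0.84 (edgeR adjusted p = 0.0482). Its adjusted p ran from 0.0482 to 0.307 over the alternatives.

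Fosl1 (ENSMUSG00000024912, chr19:5447547-5455946, plus strand), which encodes Fra-1, had wt counts of 3, 8 and 0 and no gld count, too few to test. Over the group its wt level was 1.29 CPM. Against a floor of 3 counts over the gld group, 0.237 CPM, it was at least 5.44-fold lower in gld by pooled counts. That bound leaves out the error of the wt sum of 11 counts, whose 95% exact Poisson interval is 5.49 to 19.7 counts, and its end overlaps Ccdc85b on the opposite strand. Fosl2 (ENSMUSG00000029135, chr5:32135801-32157842, plus strand), which encodes Fra-2, gave most of the Fos family tags, with 338, 419 and 328 CPM in the wt libraries and 436, 405 and 380 CPM in the gld libraries. The groups overlapped, with means of 362 ± 49.8 and 407 ± 27.8 CPM (SD, n = 3) and a log2 fold change of 0.17 ± 0.13 (SE, edgeR adjusted p = 0.471).

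Junb (ENSMUSG00000052837, chr8:84974484-84978718, minus strand, GRCm38), a Jun protein that pairs with Fos proteins and restrains proliferation, stood at 322, 381 and 331 CPM in the wt libraries and at 270.2, 313 and 335 CPM in the gld libraries. The groups overlapped, with means of 345 ± 31.6 and 306 ± 32.8 CPM (SD, n = 3) and a log2 fold change of −0.17 ± 0.13 (SE, edgeR adjusted p = 0.458). Jun itself (ENSMUSG00000052684, chr4:95049034-95052222, minus strand) was listed at 0 in all 6 libraries, although its end lies in a single transcript. A floor of 3 counts over a group corresponds to 0.351 CPM for wt and 0.237 CPM for gld, by counting error only. Whether the 0 of Jun reflects absence of the mRNA was not tested.

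The ratios between members, in tags counted, were set side by side for each library. Egr1 had 4.9, 9.81 and 5.2 tags for each Fos tag in wt and 28.4, 24 and 29 in gld. Per Junb tag the wt ratios were 0.793, 0.928 and 0.787 and the gld ratios 2.78, 2.71 and 2.14. Neither ratio overlapped between the groups, and both gave p = 0.1 in a two-sided exact permutation test, the smallest p that 3 against 3 libraries allow. For Fos this was fixed by the levels above, as every gld library was higher for Egr1 and lower for Fos. Both ratios restate the levels of single genes and are no separate support.

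Among the 3 Klf members the groups held different shares of tags. Klf2 made up 8%, 16% and 16.6% of the Klf2, Klf4 and Klf6 tags in wt and 31.8%, 29.3% and 26.8% in gld, with exact binomial 95% intervals of 6.34% to 9.92% for the lowest and 30.4% to 33.2% for the highest library. The Klf6 share was 64% ± 0.403 in wt and 48% ± 1.12 in gld, and the Klf4 share 22.4% ± 4.51 and 22.7% ± 2.5 (SD, n = 3). The two-sided exact permutation p was 0.1 for Klf2 and for Klf6 and 1 for Klf4. These intervals cover counting error only, as no molecular identifiers are mentioned. The shares restate the levels of these genes and are no separate support. The Klf6 share was lower in gld although the level of Klf6 rose 1.90-fold.

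Among the Fos family tags, Fosl2 took 86.3%, 91.6% and 86.8% in wt and 94.3%, 92% and 93.9% in gld (two-sided exact permutation p = 0.1). Junb took 47.7%, 57.1% and 54.8% of the Jun family tags in wt and 43%, 48.1% and 42.4% in gld, the remainder being Jund, and these groups overlapped (two-sided exact permutation p = 0.2). The Fosl2 and Junb shares also restate the levels of single genes, none of which passed the test, and are no separate support. The summed Klf members went from 470.2 ± 26.8 to 1187 ± 92.9 CPM (SD, n = 3), whereas the summed Fos members stood at 409 ± 42.4 and 436 ± 29 CPM (two-sided exact permutation p = 0.4).

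**Figure D2:**
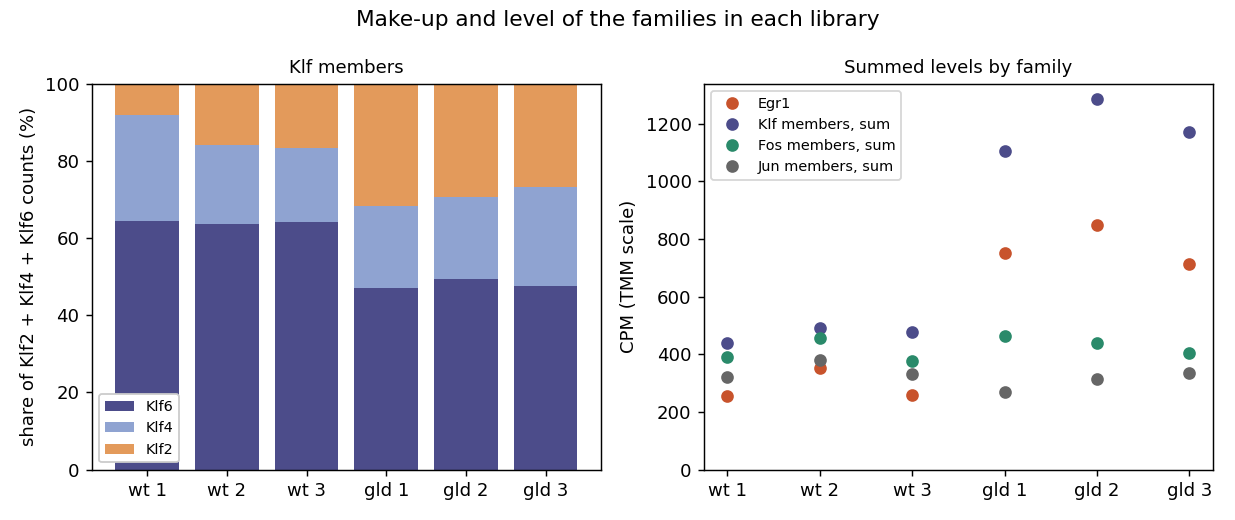
The left panel stacks the share of Klf2, Klf4 and Klf6 in their summed counts, in %, for each of the 6 libraries, and the right panel plots Egr1 and the summed Klf, Fos and Jun members in CPM. The Klf2 share lies between 8% and 16.6% in wt and between 26.8% and 31.8% in gld. Egr1 and the Klf sum are higher in all 3 gld libraries while the Fos and Jun sums overlap between the groups. As Jun is at 0, the Jun sum is Junb alone.

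By the root mean square difference of centred log2 CPM over the 6 libraries, a description with no test, the closest pairs among the members that rose were Egr1 and Klf4 (0.256), Klf4 and Klf6 (0.285) and Egr1 and Klf6 (0.285). Fosl2 and Junb were close as well (0.233). The widest gap was between Klf2 and Fos (1.67). The 3 tested genes nearest to Klf2, the member with the smallest adjusted p, were Rspo3 (0.0632), Akap12 (0.199) and Scrn1 (0.261). Genes without a symbol, gene models and pseudogenes were left out of this ranking. Rspo3, which encodes an R-spondin that amplifies Wnt signals, had wt counts of 32, 115 and 109 and gld counts of 647, 652 and 627. Akap12, a scaffold for protein kinase A, had wt counts of 9, 36 and 36 and gld counts of 256, 216 and 175. As for Klf2, wt 1 was the lowest library for each, a likeness for which these genes were picked and no separate result.

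Of the other genes of these families, Klf3 was the one that rose. Of 18 further Egr, Klf, Fos and Jun genes, 9 were tested, 1 rose, 8 did not pass and none fell (0 at an unadjusted p under 0.05, and 0 by DESeq2 and limma-voom). The share that rose was 11.1%, near the 9.74% of all tested genes called higher, and 7.69% of all were called lower. Klf3, a repressor of the family, rose from 161 ± 4.78 to 333 ± 24.8 CPM (SD, n = 3), a log2 fold change of 1.05 ± 0.13 (SE, edgeR adjusted p = 3.24e-05). Without wt 2 a second gene of this list passed. The median of the 9 was 0.46, and that of the 7 members 0.92, against 0.02 over all 8692 tested genes. Klf9, a glucocorticoid-responsive member named after its value was seen, had 502 ± 18.1 and 471 ± 19 CPM (log2 fold change −0.09 ± 0.11, edgeR adjusted p = 0.671). Fosb was listed at 0 in all libraries, but 1.7% of its last 300 bases lie in a single transcript, so this sets no bound.

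**Figure D3:**
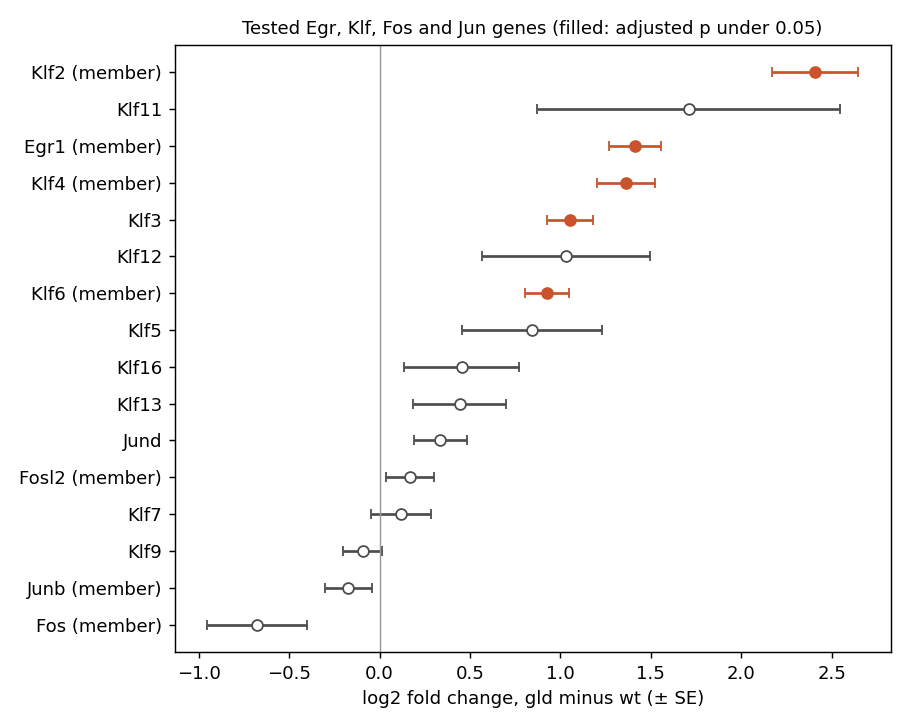
The x axis gives the log2 fold change, gld minus wt, with its SE as a bar for the 16 tested Egr, Klf, Fos and Jun genes, and filled points passed an adjusted p of 0.05 in edgeR. Klf2 at 2.41 and Egr1 at 1.41 are among the filled points to the right, with Klf4, Klf3 and Klf6, and Fos at −0.68 is the lowest and open.

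Among other immediate early genes more fell than rose. Of 36 listed, 22 were tested, 12 fell and 3 rose, where 7.69% and 9.74% of all tested genes were called lower and higher, and the median was −0.42. Rgs2, which damps Gq signalling, fell from 769 ± 76.2 to 406 ± 26.4 CPM (SD, n = 3), by 0.92 ± 0.12 (SE) on the log2 scale. Errfi1, a feedback inhibitor of the EGF receptor, fell by 2.47 ± 0.34 (SE), from 77, 155 and 120 counts to 31, 31 and 30. Of the last 300 bases of Errfi1 0% lie in a single transcript, and whether reads were lost there was not tested. Cebpb, a bZIP factor of inflammation and fat cells, fell by 0.70 ± 0.12 (SE), and Gadd45a, a growth arrest gene, rose by 1.56 ± 0.20 (SE) on the log2 scale (edgeR adjusted p of at most 0.000951 for these 4). The others that fell were Ier3, Ier5, Socs3, Ccn1, Cebpd, Btg1, Plk2, Srf and Phlda1, and the others that rose were Tiparp and Zfp36l1. Without wt 3 the number that fell was 7.

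Srf, named after its value was seen, encodes serum response factor, which binds the CArG box of many of these genes. Its wt counts were 76, 122 and 111 and its gld counts 88, 27 and 74, or 36.1 ± 2.27 and 14.8 ± 7.43 CPM (SD, n = 3), and fell by 1.29 ± 0.39 (SE) on the log2 scale (edgeR adjusted p = 0.0324). Its gld libraries were more spread than its wt libraries, with gld 2 the lowest. Dusp1, Myc, Nr4a2 and Ccn2 were among the immediate early genes listed at 0 in all 6 libraries. At most 0.3% of the last 300 bases of each lie in a single transcript, so, as for Egr2, their 0 sets no bound.

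The bZIP partners of Fos and Jun split. Of 20 listed, 10 were tested, 2 rose and 2 fell, with a median of −0.03. Each was 20% of those tested, where 9.74% and 7.69% of all tested genes were called higher and lower. Maf, a large Maf factor, rose by 0.53 ± 0.12 (SE, edgeR adjusted p = 0.00538). Nfe2l2, the NRF2 factor of the antioxidant response, fell from 949 ± 83.8 to 415 ± 38.6 CPM (SD, n = 3), by 1.19 ± 0.12 (SE) on the log2 scale (edgeR adjusted p = 4.33e-06). Mafg, a small Maf that pairs with NRF2, fell by 0.55 ± 0.15 (SE, edgeR adjusted p = 0.0182), a call lost without wt 2, wt 3 or gld 2 (largest edgeR adjusted p 0.0732).

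Upstream kinases and serum response factor cofactors mostly did not pass. Of 25 listed, 14 were tested, 2 fell and none rose in edgeR (2 at an unadjusted p under 0.05, 0 by DESeq2 and by limma-voom), with a median of 0.00. The share that fell was 14.3%, where 7.69% of all tested genes were called lower and 9.74% higher. Elk3, an ETS cofactor that represses Fos, fell from 145 ± 7.92 to 59.5 ± 5.79 CPM (SD, n = 3), by 1.28 ± 0.17 (SE) on the log2 scale (edgeR adjusted p = 8.23e-05). Map2k1, the kinase MEK1 that activates ERK, fell from 149.5 ± 24.3 to 84.2 ± 6.97 CPM (SD, n = 3), by 0.83 ± 0.18 (SE) on the log2 scale (edgeR adjusted p = 0.00392).

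Feedback inhibitors of the pathway also went both ways, near the threshold. Of 16 listed, 10 were tested, 1 rose and 3 fell, with a median of 0.02. These shares were 10% and 30%, where 9.74% and 7.69% of all tested genes were called higher and lower. The phosphatase gene Dusp5 had wt counts of 42, 49 and 29 and gld counts of 150, 132 and 183 and rose by 1.33 ± 0.35 (SE, edgeR adjusted p = 0.0151). Dusp10 fell by 1.26 ± 0.36 and the Sprouty gene Spry4 by 1.18 ± 0.36 (SE, edgeR adjusted p = 0.0259 and 0.0375), and Dusp4, with wt counts of 17, 50 and 49 and gld counts of 1, 0 and 16, fell by 3.36 ± 1.01 (SE, edgeR adjusted p = 0.0316). Without gld 3 the log2 fold change of Dusp4 was −6.31. The number that fell was 0 without wt 2 or gld 2. Each of these 4 calls was lost when some libraries were left out, Dusp5 without wt 3 or gld 1, Dusp10 without any library but wt 1, Dusp4 without wt 2, wt 3, gld 1 or gld 2 and Spry4 without wt 1, wt 2, gld 2 or gld 3. With the replicate block Dusp10 had an adjusted p = 0.0579 and Spry4 an adjusted p = 0.052 in edgeR. Nab1 and Nab2, the corepressors of Egr proteins, were listed at 0 in all 6 libraries. Of their last 300 bases 0% and 0.3% lie in a single transcript, so their 0 sets no bound.

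Textbook AP-1 target genes changed in both directions. Of 17 listed, 13 were tested, 3 rose and 6 fell, with a median of 0.01. These shares were 23.1% and 46.2%, where 9.74% and 7.69% of all tested genes were called higher and lower. Ptgs2, the inducible cyclooxygenase gene, fell from 3501 ± 510.4 to 85.2 ± 3.69 CPM (SD, n = 3). The cytokine gene Il11 fell from 978 ± 126 to 4.55 ± 3.64 CPM (SD, n = 3), a log2 fold change of −7.81 ± 0.34 (SE). The protease gene Mmp10 fell from wt counts of 219, 468 and 373 to gld counts of 7, 0 and 0, a log2 fold change of −7.69 ± 0.56 (SE) that was −11.72 without gld 1, where the gld group is at 0 and the value is no bound. Ccnd1, which encodes cyclin D1, rose by 2.13 ± 0.14 (SE), from 188 ± 33 to 823 ± 20.1 CPM. In edgeR all 4 of these had an adjusted p of at most 1.85e-07. Mmp13, the collagenase known as a Fos and Runx2 target in mouse bone and named after its value was seen, rose by 1.53 ± 0.20 (SE, edgeR adjusted p = 5.58e-05).

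Of 10 textbook Egr1 target genes, 6 were tested, 2 rose and 1 fell, with a median of −0.07. These shares were 33.3% and 16.7%, where 9.74% and 7.69% of all tested genes were called higher and lower. The platelet-derived growth factor gene Pdgfb rose from no wt count to gld counts of 30, 77 and 100, at least 46.5-fold higher against a floor of 3 counts over the wt group. The adhesion molecule gene Icam1 had 1 wt count in all and gld counts of 50, 81 and 67, a ratio of 133.6 over pooled counts (95% interval from counting error 23.7 to 5302). Pdgfa fell from 87.7 ± 3.34 to 42.5 ± 6.96 CPM (SD, n = 3), by 1.05 ± 0.21 (SE) on the log2 scale (edgeR adjusted p of at most 0.00234 for these 3).

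**Figure D4:**
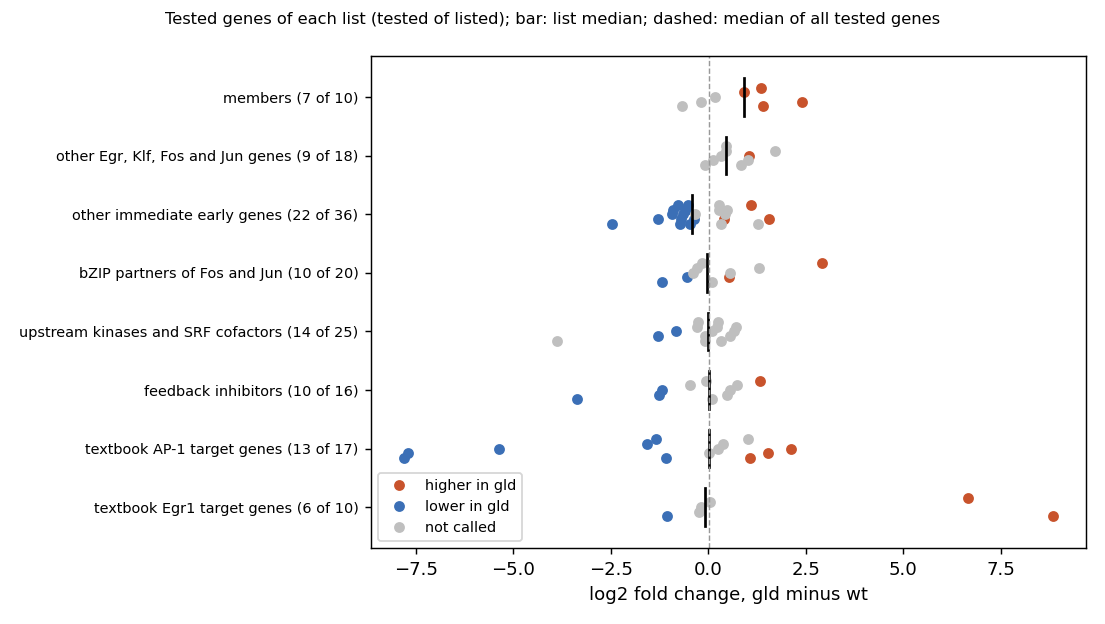
Each row plots the log2 fold change, gld minus wt, of the tested genes of 1 list, coloured by call in edgeR, with the list median as a bar and the median of all tested genes dashed. The other immediate early genes lie mostly to the left, with a median of −0.42, and 5 of the 7 tested members lie to the right of 0, with a median of 0.92.

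Klf2, Klf4 and Egr1 are also expressed by macrophages, and macrophage markers were higher in the same 3 libraries. Of 19 macrophage markers, 10 were tested, 8 rose (5 in limma-voom) and 2 (Cd14 and Cd53) fell, where 9.74% and 7.69% of all tested genes were called higher and lower. C1qa, C1qb, C1qc and Marco had between 0 and 5 counts per wt library and between 242 and 1441 per gld library (largest edgeR adjusted p of these 6.59e-07). Over the same list 7 markers were at 0 in every library, among them the defining genes Csf1r, Adgre1 and Tyrobp. Of these 7, Csf1r alone has a single-transcript end, and as for Egr2 the 0 of the 6 others sets no bound. The summed level of the list ran from 372 to 585 CPM in wt and from 2356 to 6492 CPM in gld. In wt most of it came from the 2 markers that fell, Cd14 at 237 to 308 CPM and Cd53 at 116 to 179 CPM. In gld most of it came from Lyz2, a lysozyme gene named after its value was seen, which stood at 3.29, 119.5 and 18.4 CPM in the wt libraries and at 1782, 2941 and 4984 CPM in the gld libraries. Their part in the rise of the members was not tested.

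Within gld the summed macrophage markers were 2356, 3737 and 6492 CPM, a spread of 2.76-fold that is mostly that of Lyz2. Over these libraries Egr1 spread by 1.19-fold, Klf2 by 1.21-fold, Klf4 by 1.29-fold and Klf6 by 1.22-fold. Gld 3, with the highest marker level, had the lowest Egr1 and Klf2 levels and the highest Klf4 level of the 3. Whether the members' levels depend on macrophages was not tested.

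**Figure D5:**
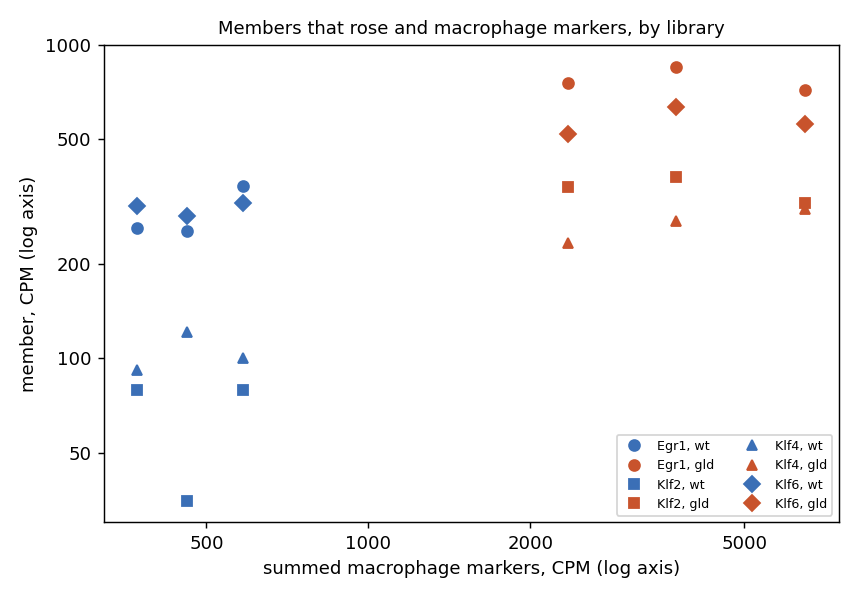
The x axis gives the summed macrophage markers and the y axis the level of Egr1, Klf2, Klf4 and Klf6, both in CPM on log axes, with 1 point per member and library. Marker sums run from 372 to 585 in wt and from 2356 to 6492 in gld, and across the 3 gld libraries each member varies by at most 1.29-fold.

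Other markers moved with the groups too. The chondrocyte list rose in 4 of 5 tested genes of 10 (largest edgeR adjusted p 2.01e-05). They were Sox9, by 1.87 ± 0.11 (SE) on the log2 scale, Acan, at least 64.8-fold higher, Col9a2 and Col11a2. The summed level of the list ran from 217 to 224 CPM in wt and from 1046 to 1083 CPM in gld. Most of it was Sox9, at 207 to 220 CPM in wt and 753 to 809 CPM in gld. Col2a1 had 9 counts in gld 1 and none in the other libraries, and Col9a1 and Col9a3 were at 0 throughout. At most 1.3% of the last 300 bases of each lie in a single transcript, so their 0 sets no bound. Of 8 tested osteoblast markers of 13, 6 rose, among them Col1a1, Col1a2 and Postn, and Alpl fell by 2.20 ± 0.18 (SE, edgeR adjusted p = 7.97e-07). For Col11a2 and Postn 0% of the last 300 bases lie in a single transcript, and whether reads were lost there was not tested. Neither of 2 tested endothelial markers passed (0 at an unadjusted p under 0.05, and 0 by DESeq2 and limma-voom), with Plvap at 2.43 ± 1.25 and Kdr at 1.51 ± 1.16 (SE), and 5 of 7 were at 0 in every library. Of the 5 endothelial markers at 0, Cdh5 alone has a single-transcript end, and the 0 of the others sets no bound. For all tested genes the shares called were 9.74% higher and 7.69% lower. The part of chondrocytes, osteoblasts and endothelial cells in the members' levels was not tested.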

How the data were processed

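RNA of 6 libraries was measured with QuantSeq FWD single-end 3′ sequencing, per the labels' protocols. Trimming with Cutadapt and alignment with STAR are named in the series' design text. Trim Galore, FastQC and DESeq2 appear with mm10 in the submitters' processing notes. Which program counted reads, with which strand option and annotation, is not given in the sources used here, so that reads of overlapping antisense genes cannot be told apart. The values are raw counts as deposited, 1 row for each Ensembl gene, and 1 row without an ID, which held no count, was left out. Symbols were found for 51883 of 57180 IDs.

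Genes were kept by filterByExpr (10 counts) and scaled by TMM, and gld was tested against wt with edgeR 4.0.16 (limma 3.58.1, DESeq2 1.42.0, R 4.3.3) over all genes at an adjusted p of 0.05. SE was taken as |log2 fold change| over the root of F. The members and lists were chosen with earlier results of these data known. Named genes are the members, up to 4 called genes of each list by adjusted p or 2 where none was called, and the 3 genes nearest to the top member. For the last, genes without a symbol, gene models and pseudogenes were left out. A few listed genes are not reported here by name.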

Additional observations from a re-analysis of the deposited data

How the results depend on the processing

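The 4 members that rose were called higher under all 13 alternatives. Over these, Klf2 ran from 2.13 to 2.58, Egr1 from 1.26 to 1.58, Klf4 from 1.21 to 1.48 and Klf6 from 0.77 to 0.97 on the log2 scale. Scaled by library size alone, 1 member was called lower (Fos at −0.84) in place of 0. Without each library in turn edgeR called from 1224 to 1424 genes, 684 to 867 higher and 504 to 605 lower, and 4 members higher and 0 lower each time. Scaling by library size alone gave 720 genes higher and 975 lower, against 847 and 668. Of 556 values of 43 named genes under the alternatives, 533 kept their direction and side of the threshold, 22 kept direction but not the call, 1 gained a call and 0 reversed. C1qa and Dusp4 lost theirs in limma-voom (adjusted p = 0.0699 and 0.0672). Same-numbered libraries did not deviate together (correlations from −0.0231 to −0.015). With 3 libraries per group, centred on their group mean, this check cannot exclude a shared batch. With the replicate block 1359 genes were called, and of the named genes Dusp10 and Spry4 lost their calls. Libraries of wt are shallower than those of gld, so that a count of 0 is a higher floor in wt.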
